A study of Rattus norvegicus with 12 samples.

Results

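The 8 genes described here, Reg3b, Tfpi2, Ctgf, S100a6, Hmga2, Plaur, Gdf15 and Lif, were chosen by their strong rise after oxygen and glucose deprivation (OGD) in these arrays, together with known factors of tissue injury. They were measured by 9 probes, out of 17996 probes that carry the name of 15148 genes. Plaur has 2 probes and each of the others 1, and Ctgf, which RefSeq now names Ccn2, is printed at 10 spots that were averaged. Because the differences between OGD and control chose the genes, those differences are given as a description, without a test.

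Hippocampal neurons of Wistar rat embryos at embryonic day 18 were kept in culture for 14 to 15 days. OGD cultures were then held without oxygen in a buffer with 25 mM sucrose, and control (Ctrl) cultures in air and CO2 with 25 mM glucose. All were returned to conditioned medium for 7 h or 24 h of recovery, which gives the groups Ctrl 7 h, OGD 7 h, Ctrl 24 h and OGD 24 h with 3 samples each. RNA of each sample was read on 1 of 12 one-color arrays, and each of 6 slides holds the Ctrl and the OGD array of 1 time and 1 replicate number. Whether samples of one number came from the same culture is not given in the sources used here, and p-values measure the spread between these samples.

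A level below is the log2 of the probe signal minus the median of all probes on that array, so that 0 is the median probe. Levels of different probes are not comparable with each other. Differences are OGD minus control on the log2 scale, and a difference of 1 is a 2-fold higher signal. A probe is well above background on an array where the scanner software said so. The cultures hold other cells than neurons, and on whole cultures a change in the number of cells of a type and a change of RNA per cell cannot be told apart.

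These genes code for products that injured tissue makes or responds to. Reg3b is a secreted lectin of the regenerating islet-derived family, and Lif and Gdf15 are secreted cytokines that act through gp130 with the LIF receptor and through Gfral with Ret. Plaur is the receptor that holds urokinase at the cell surface, where plasminogen is turned into plasmin, and Tfpi2 is a secreted inhibitor of plasmin and other serine proteases. Ctgf is a matricellular protein of the CCN family and a well known target of the YAP coactivator with TEAD factors, S100a6 is a calcium-binding protein of dividing and reactive cells, and Hmga2 is a chromatin protein of embryonic cells that let-7 microRNAs repress.

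Promoters of 7 of the 8 genes were found in the RefSeq table of build GRCr8 (250 bases before and 50 after the start of the gene), all but that of Lif, with a pair of entries for Gdf15. They were searched on both strands for short motifs of transcription factors, and the stretches that hold matches in Reg3b, Ctgf and Plaur are shown as examples. Capitals mark the matches. The Reg3b stretch is chr4:112419631-112419720 on the plus strand, the Ctgf stretch chr1:22624690-22624799 on the minus strand, and the Plaur stretch chr1:89181258-89181307 on the plus strand.
Reg3b: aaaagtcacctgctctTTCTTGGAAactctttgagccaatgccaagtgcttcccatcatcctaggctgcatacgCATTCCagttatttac
Ctgf: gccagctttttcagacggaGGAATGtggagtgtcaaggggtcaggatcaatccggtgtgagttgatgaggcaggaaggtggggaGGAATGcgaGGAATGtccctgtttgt
Plaur: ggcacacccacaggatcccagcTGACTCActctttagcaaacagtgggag

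The TEAD motif (GGAATG) stood in the promoters of Ctgf, Reg3b and Hmga2, against 14.2% of all 33469 promoters. Ctgf held 3 copies, beginning 166, 101 and 92 bases before the start, and 0.0896% of all promoters hold at least 3. The STAT motif (TTCNNNGAA) was matched in Reg3b, against 8.87% of all promoters, and the AP-1 motif (TGACTCA or its reverse strand) in Plaur, against 4.63%. The ATF4 motif (TGATGCAA, in 0.795% of promoters) and an NF-kB motif (in 0.111%) were in none of the 7. The motifs do not overlap one another here, and a match of letters is not a measured binding site.

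Taken over the members, 7 of 8 were at least 2-fold higher after OGD at 7 h and 6 of 8 at 24 h, in the direction that chose them. Of all named genes, 2.96% reached that size at 7 h and 4.63% at 24 h, with no p asked. The median difference of the 8 was 1.58 at 7 h and 2.88 at 24 h, beside -0.11 and -0.03 over the 15148 named genes. With Reg3b, Tfpi2 and Hmga2, whose 24 h controls were in the background, at the bounds defined under the processing, the 24 h median was 2.29. At 7 h the 3 OGD arrays lay above all 3 control arrays for 5 members (7.6% of named genes), and at 24 h for 6 (9.07%). Lif does not bear out the name of strongly induced, since its difference stayed under 2-fold at both times.

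**Figure D1:**
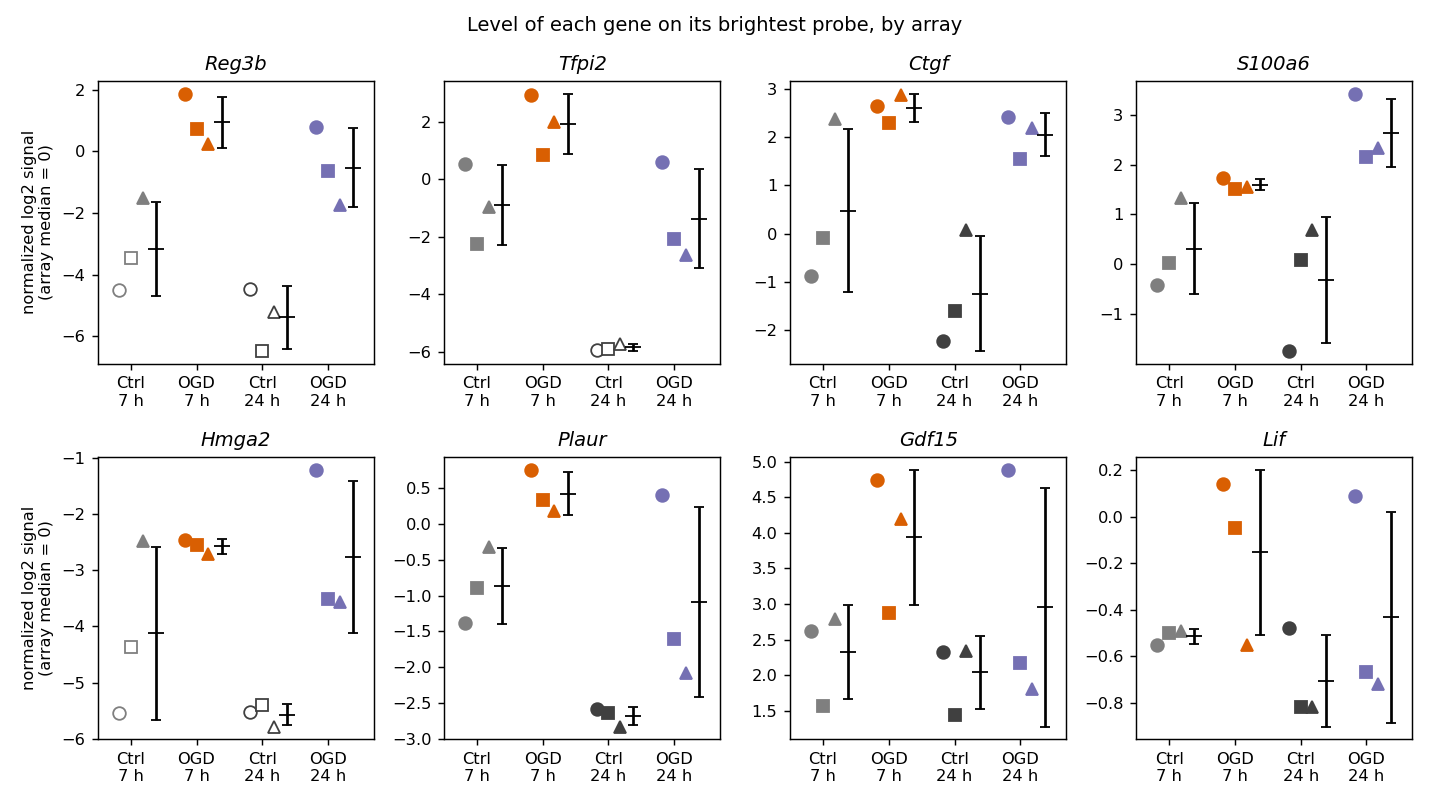
Normalized log2 signal (vertical axis, array median at 0, own scale in each panel) of the 8 genes in the 4 groups of 3 arrays; circles, squares and triangles are replicates 1, 2 and 3, open symbols are not well above background, and the black bars are the mean and SD. The Tfpi2, Hmga2 and Reg3b points of Ctrl 24 h are all open, and the circle of OGD 24 h is the highest of its group in every panel.

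Reg3b, the secreted lectin, had the largest fitted difference of the 8 at 7 h. Its levels at Ctrl 7 h were -4.50, -3.47 and -1.51 in replicates 1, 2 and 3, and at OGD 7 h 1.86, 0.73 and 0.24. The Ctrl 24 h arrays gave -4.45, -6.47 and -5.22, and those of OGD 24 h 0.80, -0.63 and -1.75. Every OGD array was above every control array of its time, but the probe was well above background on only 1 of 3 Ctrl 7 h arrays and on none at Ctrl 24 h.

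The Reg3b difference was 4.10 ± 0.85 (SE of the fit, n = 3 against 3) at 7 h. On the 3 slides of that time it was 6.36, 4.20 and 1.74. At 24 h the slides gave 5.25, 5.84 and 3.48, and because the controls were in the background the OGD signal is stated as at least 14.5-fold higher. That bound is set against the lowest level well above background on each control array, which is not a detection limit. It also depends on the background removal used here. With another one, normexp, the fitted 24 h difference was 1.53. Without replicate 1 or 3 of Ctrl 7 h the 7 h difference was 3.43 or 4.92. The order of the group means was OGD 7 h, OGD 24 h, Ctrl 7 h and Ctrl 24 h, and each neighbour in this order overlapped the next.

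The other Reg genes were tested, since they are not members. The lists of related genes were drawn up with earlier results of these data known, so counts of called genes on them are a description. Reg3a and Reg3g, lectins of the same subfamily, and Extl3, which is named as a receptor of Reg proteins, were called higher at 7 h, that is with an unadjusted p under 0.05 and a fold of at least 2. These are 3 of the 5 genes on the list (2 of its 4 Reg genes, and Extl3), against 1.56% of all named genes called higher at 7 h. Reg3a was 2.07 ± 0.56 higher (4.19-fold), Reg3g 1.93 ± 0.60 (3.82-fold) and Extl3 1.23 ± 0.28 (2.34-fold), each on 3 of 3 slides. The lowest slide difference of Reg3g was only 0.06. Their limma p-values adjusted over all probes were 0.266, 0.282 and 0.230. Reg3a was well above background on 2 and Reg3g on 1 of the 3 Ctrl 7 h arrays, and without replicate 1 of OGD 7 h Reg3a was 1.43 higher. Reg3g was 1.40 higher without replicate 2 of Ctrl 7 h and 2.63 higher without replicate 3 of that group.

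At 24 h Reg3g alone of the 5 was called higher, against 2.74% of all named genes. It was on none of the Ctrl 24 h arrays and on 2 of 3 OGD 24 h arrays well above background, which gives a rise of at least 1.41-fold (adjusted p = 0.252 by limma). With normexp the fitted difference of Reg3g was 1.07 at 7 h and 0.73 at 24 h, the latter under 2-fold. Reg3a differed by 0.27 ± 0.56, Extl3 by 0.18 ± 0.28 and Reg1a by -0.09 ± 0.46 at that time, none of them called. The difference between the 24 h and 7 h changes was -1.79 for Reg3a and -1.05 for Extl3, with unadjusted interaction p-values of 0.046 and 0.025, and neither held after adjustment over all probes (1.0 by limma). Whether the probes of these related genes read each other's RNA was not tested.

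Plaur, the urokinase receptor, was higher after OGD on all slides at both times. Its brighter probe read -1.38, -0.90 and -0.32 at Ctrl 7 h and 0.76, 0.33 and 0.18 at OGD 7 h. At Ctrl 24 h it read -2.58, -2.64 and -2.83, and at OGD 24 h 0.41, -1.60 and -2.08. The groups did not overlap at either time, and replicate 1 of OGD 24 h stood well over the other two.

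The fitted Plaur difference was 1.29 ± 0.53 at 7 h and 1.60 ± 0.53 at 24 h. The slides gave 2.14, 1.24 and 0.51 at 7 h, and as a ratio of the signals they gave 7.99-fold, 2.06-fold and 1.68-fold at 24 h. Without replicate 1 of OGD 24 h the later difference was 0.85, under 2-fold. The second probe gave larger differences in the same direction, 1.62 ± 0.62 at 7 h and 2.41 ± 0.62 at 24 h.

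Tfpi2, the protease inhibitor, was the member whose control level differed most between the times. It read 0.54, -2.26 and -0.96 at Ctrl 7 h and 2.94, 0.86 and 2.02 at OGD 7 h. The probe read -5.94, -5.90 and -5.72 at Ctrl 24 h, on no array well above background, and at OGD 24 h 0.61, -2.08 and -2.62. OGD and control did not overlap at either time.

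The Tfpi2 difference at 7 h was 2.83 ± 0.88, and the slides were closer to each other than for the other strongly changed genes, at 2.40, 3.12 and 2.98. At 24 h the slides gave 6.55, 3.83 and 3.11, and the OGD signal was at least 8.13-fold higher than the control background. With normexp the fitted 24 h difference was 1.19. Without replicate 1 or 2 of Ctrl 7 h the 7 h difference was 3.55 or 2.15. The OGD 24 h mean of -1.36 was nevertheless below the Ctrl 7 h mean of -0.89, with overlapping arrays. Plaur had the same order of means, with -1.09 at OGD 24 h and -0.87 at Ctrl 7 h, and there too the arrays overlapped.

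The list of plasminogen activation and coagulation held 21 genes with a probe. At 7 h 5 were called higher and none lower, and at 24 h 5 were called higher and 2 lower. Among all named genes 1.56% were called higher and 2.07% lower at the earlier time, and at the later one 2.74% higher and 2.38% lower. Over the list the median difference was 0.03 at 7 h and 0.30 at 24 h.

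The called genes include the ligand of Plaur. Plau, the urokinase that Plaur binds, was 2.25 ± 0.62 higher at 7 h and 3.18 ± 0.62 at 24 h (4.76-fold and 9.03-fold, adjusted p = 0.270 and 0.252 by limma). It was higher on all 3 slides of each time. Its 24 h difference was 2.57 without replicate 1 of OGD 24 h, 2.58 without replicate 1 of Ctrl 24 h and 3.79 without replicate 3 of OGD 24 h. Plau was well above background on 2 of 3 Ctrl 24 h arrays. With normexp its fitted 24 h difference was 0.98, under 2-fold. Plat, the tissue-type activator, differed by 0.55 ± 0.24 and 0.40 ± 0.24 and was called at neither time.

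Anxa2 and S100a10 form the cell surface complex that holds plasminogen and its activator. Anxa2 was 1.55 ± 0.59 higher at 7 h and 2.48 ± 0.59 at 24 h (2.93-fold and 5.58-fold). S100a10 was 0.78 ± 0.34 at 7 h, not called, and 1.52 ± 0.34 higher at 24 h (2.88-fold). The 7 h call of Anxa2 was lost without replicate 1 or 2 of Ctrl 7 h or replicate 3 of OGD 7 h. Over all arrays of 7 h left out in turn, its difference ran from 1.22 to 2.12, the highest without replicate 3 of Ctrl 7 h. Its 24 h call and that of S100a10 were kept without any 1 array of 24 h, Anxa2 at 1.88 without replicate 1 of Ctrl 24 h.

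Around Tfpi2, the coagulation genes differed in direction. F3, tissue factor, was 1.84-fold higher at 7 h and 1.99-fold at 24 h (SE 0.27 on the log2 scale), just under the 2-fold threshold, and Tfpi, the inhibitor related to Tfpi2, by -0.32 ± 0.33 and -0.15 ± 0.33. Thbd, thrombomodulin, was called higher at both times (2.79 ± 1.04 and 2.36 ± 1.04). It was well above background on 1 of 3 Ctrl 24 h arrays, and the mean over its probes gave 1.27 at 7 h. Its 7 h call was lost without replicate 1 of OGD 7 h or replicate 2 of Ctrl 7 h. At 24 h it was higher on 2 of 3 slides, with -1.45 on the other, and that call was lost without any of 4 of the 6 arrays: replicates 1 and 3 of OGD 24 h and of Ctrl 24 h. Over all 6 left out in turn, the 24 h difference ran from 1.39 to 3.53, the highest without replicate 2 of Ctrl 24 h. F2rl1, a receptor that proteases activate, was called higher at 7 h (1.27 ± 0.25, 2.42-fold). F2, the gene of prothrombin, and Serpini1, the neuronal inhibitor neuroserpin, were called lower at 24 h, where F2 fell by 1.73 ± 0.28 and Serpini1 fell by 1.33 ± 0.45, both on 3 of 3 slides. The Serpini1 call was lost without replicate 1 of OGD 24 h, which left a difference of -0.70.

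**Figure D2:**
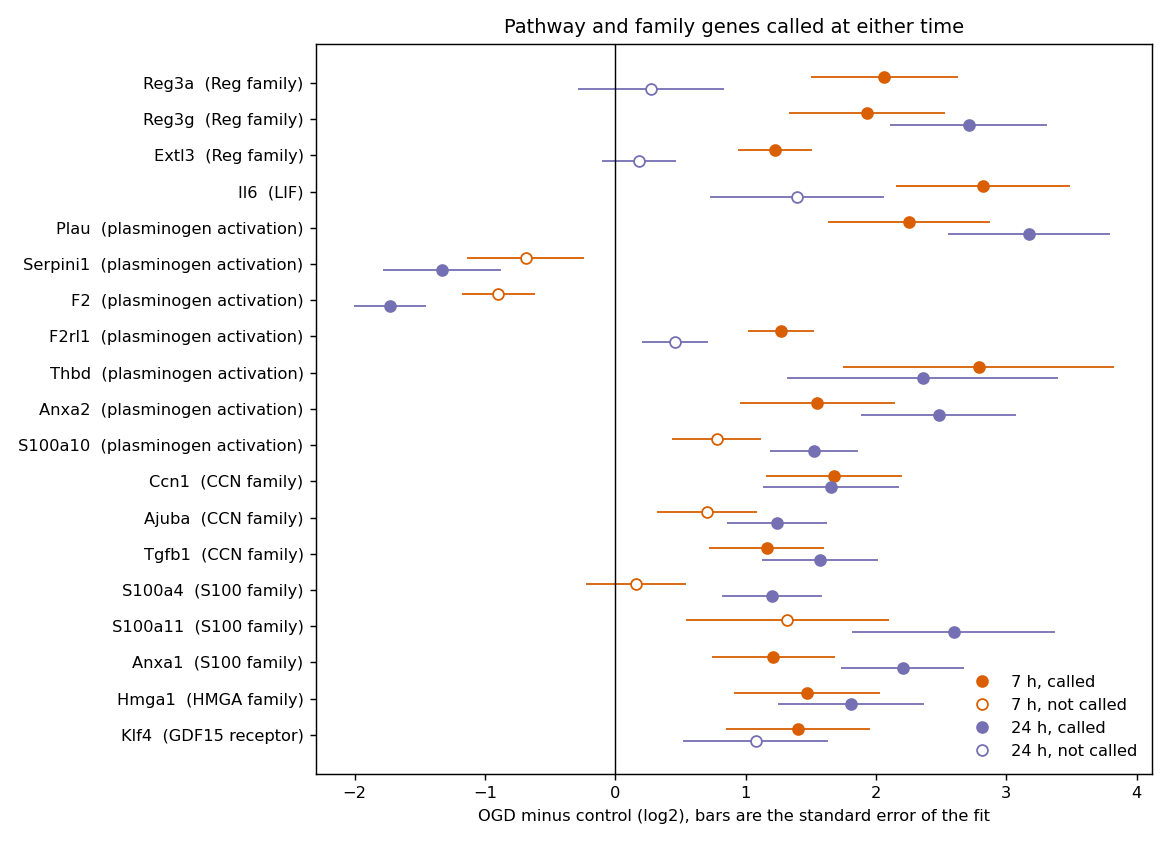
Fitted differences (OGD minus control, log2, horizontal axis) of 19 genes of the 7 pathway and family lists called at either time, with the standard error of the fit; filled points are called, open points are not, orange is 7 h and violet 24 h. Plau and Thbd lie to the right of 2 at both times, and the 2 genes to the left of 0 are F2 and Serpini1.

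Ctgf, the matricellular protein, was well above background on all 12 arrays. Its levels were -0.87, -0.08 and 2.37 at Ctrl 7 h and 2.65, 2.30 and 2.87 at OGD 7 h. In the later groups they were -2.21, -1.59 and 0.08 at Ctrl 24 h and 2.42, 1.55 and 2.19 at OGD 24 h. The OGD arrays were alike within each time, while the controls spread over 3.25 units at 7 h and 2.29 at 24 h, with replicate 3 the highest at both.

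The Ctgf difference was 2.14 ± 0.77 at 7 h and 3.29 ± 0.77 at 24 h. On the slides it was 3.53, 2.38 and 0.50 at 7 h and 4.63, 3.14 and 2.11 at 24 h. Replicate 3 of Ctrl 7 h reached into the OGD range, and without it the 7 h difference was 3.09. Without replicate 1 of Ctrl 7 h it was 1.46, and without replicate 3 of Ctrl 24 h the 24 h difference was 3.95.

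In the list of the CCN family and of YAP and TEAD, 18 genes had a probe, of which 2 were called higher at 7 h and 3 at 24 h (1.56% and 2.74% of all named genes), and none lower. Ccn1, the CCN gene most often used with Ctgf as a readout of YAP, was 1.68 ± 0.52 higher at 7 h and 1.66 ± 0.52 at 24 h (3.20-fold and 3.15-fold, adjusted p = 0.282 and 0.285 by limma), and 1.04 at 24 h without replicate 1 of OGD 24 h. Tgfb1, a cytokine known to induce Ctgf, was 1.16 ± 0.44 and 1.57 ± 0.44 higher, though its 7 h call was lost without any of 4 of the 6 arrays (replicates 2 and 3 of OGD 7 h, 1 and 2 of Ctrl 7 h). It was well above background on 1 of 3 Ctrl 7 h and 2 of 3 Ctrl 24 h arrays. Ajuba, a LIM protein of the Hippo pathway, was called at 24 h (1.24 ± 0.38, 0.88 without replicate 1 of OGD 24 h, where it was not called). Tead1 differed by 0.64 ± 0.26 and 0.76 ± 0.26, under 2-fold, and Yap1 had no named probe. The median of the list was 0.29 at 7 h and 0.65 at 24 h.

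S100a6, the calcium-binding protein, was the member that was higher at 24 h than at 7 h of recovery. It read -0.41, 0.02 and 1.33 at Ctrl 7 h and 1.73, 1.51 and 1.56 at OGD 7 h. At Ctrl 24 h it read -1.74, 0.09 and 0.68, and at OGD 24 h 3.42, 2.15 and 2.33. The OGD groups did not overlap the controls, and the 3 OGD 24 h arrays were above the 3 OGD 7 h arrays, which none of the other 7 members showed.

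The S100a6 difference was 1.29 ± 0.62 at 7 h and 2.96 ± 0.62 at 24 h. The slides gave 2.14, 1.49 and 0.23 at 7 h, and 5.16, 2.06 and 1.66 at 24 h. Without replicate 1 of Ctrl 24 h the 24 h difference was 2.25. As for Ctgf, replicate 3 was the highest control at both times.

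Of the S100 genes and their annexin partners, 18 had a probe, with 1 called higher at 7 h and 3 at 24 h, against 1.56% and 2.74% of all named genes, and none lower. S100a11 differed by 1.32 ± 0.78 at 7 h, not called, and was 2.60 ± 0.78 higher at 24 h (6.05-fold, adjusted p = 0.275 by limma), from 1.77 without replicate 1 of Ctrl 24 h to 3.38 without replicate 3. S100a4, which is known from motile cells and reactive glia, differed by 0.16 ± 0.38 at 7 h and was 1.21 ± 0.38 higher at 24 h, a call lost without replicate 1 of Ctrl 24 h (0.69). Anxa1, a phospholipid-binding protein that S100a11 binds, was called at both times (1.21 ± 0.47 and 2.20 ± 0.47), but its 7 h call was lost without replicate 3 of OGD 7 h or replicate 1 or 2 of Ctrl 7 h. The medians of the list were 0.20 and 0.19.

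Hmga2, the chromatin protein, was a dim probe, well above background on 1 of 3 arrays of Ctrl 7 h, on no array of Ctrl 24 h and on all 6 OGD arrays. Its levels were -5.53, -4.36 and -2.48 at Ctrl 7 h and -2.46, -2.55 and -2.72 at OGD 7 h. At Ctrl 24 h they were -5.52, -5.40 and -5.78, and at OGD 24 h -1.21, -3.52 and -3.57. At 7 h the groups overlapped, because replicate 3 of the controls was level with the OGD arrays.

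The Hmga2 difference at 7 h was 1.55 ± 0.74, with 3.07, 1.81 and -0.24 on the slides, and it was 2.37 without replicate 3 of Ctrl 7 h and 0.84 without replicate 1. At 24 h the OGD signal was at least 3.07-fold higher than the background, and the slides gave 4.30, 1.88 and 2.21. With normexp the fitted 24 h difference was 0.77, under 2-fold. Hmga1, the related gene, was 1.47 ± 0.56 higher at 7 h and 1.81 ± 0.56 at 24 h (2.77-fold and 3.50-fold, adjusted p = 0.353 and 0.284 by limma). Its 24 h difference was 1.01 without replicate 1 of OGD 24 h. The 7 h call of Hmga1 was lost without replicate 1 of OGD 7 h or replicate 1 or 2 of Ctrl 7 h. It was the 1 called gene among 5 of the let-7 list with a probe, where 1.56% of all named genes were called higher at 7 h and 2.74% at 24 h, and Lin28b and Igf2bp2 had none.

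Gdf15, the stress cytokine, was higher on all slides at 7 h but not at 24 h. Its levels were 2.62, 1.56 and 2.79 at Ctrl 7 h and 4.74, 2.88 and 4.19 at OGD 7 h, without overlap. At Ctrl 24 h they were 2.33, 1.44 and 2.34, and at OGD 24 h 4.88, 2.17 and 1.81. Of the later OGD arrays, replicate 1 was high and the other two were in or near the control range.

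The Gdf15 difference was 1.61 ± 0.76 at 7 h, with 2.12, 1.33 and 1.39 on the slides. At 24 h it was 0.92 ± 0.76, with 2.55, 0.73 and -0.53 on the slides, and it was -0.047 without replicate 1 of OGD 24 h. Gfral, the receptor, differed by -0.08 ± 0.57 and -0.30 ± 0.57. Of the 12 genes listed as its receptor and upstream regulators, 1 was called higher at 7 h (against 1.56% of all named genes) and none at 24 h: Klf4, a transcription factor, at 1.40 ± 0.55 (2.64-fold, adjusted p = 0.366 by limma). That call was lost without replicate 1 of OGD 7 h or without replicate 2 or 3 of Ctrl 7 h. Over all arrays of 7 h left out in turn, the difference ran from 0.93 to 1.66, the highest without replicate 3 of OGD 7 h. Atf4, a driver of the integrated stress response, differed by 0.39 ± 0.28 and -0.14 ± 0.28, and Cdkn1a, a target of p53, by 0.23 ± 0.24 and -0.04 ± 0.24.

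Lif, the cytokine, was well above background on all arrays and differed least of the 8. It read -0.55, -0.50 and -0.49 at Ctrl 7 h and 0.14, -0.05 and -0.55 at OGD 7 h. At Ctrl 24 h it read -0.48, -0.82 and -0.82, and at OGD 24 h 0.09, -0.67 and -0.72. OGD and control overlapped at both times, and the difference was 0.36 ± 0.26 at 7 h and 0.27 ± 0.26 at 24 h.

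Most genes of the gp130 pathway did not pass the call either. Of 19 with a probe, Il6 was called higher at 7 h and none at 24 h, beside 1.56% and 2.74% of all named genes. Il6, a cytokine of the same family, was on all 3 OGD 7 h arrays and on no array of any other group well above background, which gives a rise of at least 3.29-fold at 7 h (adjusted p = 0.240 by limma, higher on 3 of 3 slides). The bound was 5.05-fold without replicate 2 of OGD 7 h and 2.34-fold without replicate 1. With normexp the fitted 7 h difference of Il6 was 1.28. Socs3, the feedback inhibitor of STAT3, differed by 0.76 ± 0.28 at 7 h and 0.69 ± 0.28 at 24 h, and Osmr, the oncostatin M receptor, by 0.30 ± 0.28 and 0.68 ± 0.28, all under 2-fold. The receptors Lifr (0.12 ± 0.31 and 0.08 ± 0.31) and Il6st (0.19 ± 0.23 and 0.39 ± 0.23) and the factor Stat3 (0.33 ± 0.20 and 0.30 ± 0.20) were not called.

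Over all 7 lists, 98 of 108 genes had a named probe, 14 were called higher at 7 h and 13 at 24 h, 9 of them at both times, and 2 were called lower at 24 h. Of all named genes, 1.56% and 2.74% were called higher and 2.38% were called lower at 24 h. No probe of the array passed an adjusted p of 0.05 in limma at 7 h or at 24 h, where the lowest were 0.117 and 0.209, while 3590 and 4160 of 30367 had an unadjusted p under 0.05. The methods' t-test gave 1 and 0 probes after adjustment. Calls are therefore those of unadjusted p-values with a fold threshold. Scaled to the 1 usable spike-in probe, OGD arrays were lower as a whole by 0.83 at 7 h and 1.01 at 24 h in the median of all probes. With that scaling none of the listed genes was called higher at 7 h and 1 at 24 h. The same scaling shifted the median of all probes by -4.60 between the control groups (Ctrl 24 h minus Ctrl 7 h). Whether this probe gives a sound scale was not tested.

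**Figure D3:**
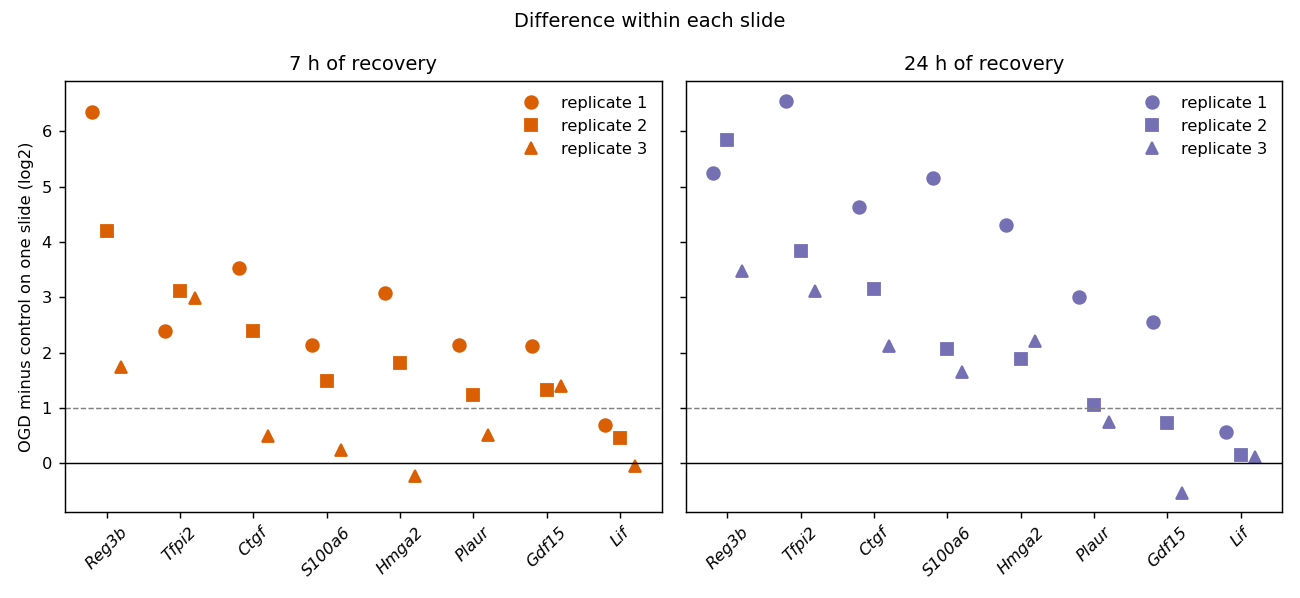
Difference of the OGD and the control array of the same slide (log2, vertical axis) for the 8 genes at 7 h (left) and 24 h (right); circles, squares and triangles are replicates 1, 2 and 3, and the dashed line is 2-fold. The circle is the highest of the 3 for 7 of 8 genes at both times, and Hmga2 and Lif at 7 h and Gdf15 at 24 h have 1 slide under 0.

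The slides of a time were unequal in the same manner for most members. At 7 h replicate 1 had the largest difference of the 3 for 7 of 8 members, and the median difference over the 8 was 2.27, 1.65 and 0.50 in replicates 1, 2 and 3. At least 2-fold were 7, 7 and 3 members. At 24 h the medians were 4.46, 1.97 and 1.88, replicate 1 had the largest difference for 7 of 8, and 7, 6 and 5 members reached 2-fold.

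These differences go with features of single arrays. Replicate 1 of OGD 24 h had the lowest median spot intensity of the 12 arrays, 131 units where the others had 234 to 660, and it was the highest array of its group for all 8 members. Without it the OGD 24 h signal was at least 9.16-fold higher for Reg3b, 4.11-fold for Tfpi2 and 1.79-fold for Hmga2, and the Lif difference was 0.013. Without replicate 3 of OGD 24 h the bounds were 22.1-fold for Reg3b and 12.6-fold for Tfpi2. Differences of Reg3b, Tfpi2 and Hmga2 on the 24 h slides are read against controls in the background, where the signal depends on how background is removed. With normexp background correction their fitted 24 h differences were 1.53, 1.19 and 0.77, below the bounds given above. With it 5 members at 7 h and 4 at 24 h were at least 2-fold higher. Reg3b and Hmga2 were well above background on only 1 of 3 Ctrl 7 h arrays, and the 7 h difference of Reg3b was 2.30 with normexp. On the slides of replicates 1 and 2 at 7 h the paired arrays were scanned 211 minutes apart, on that of replicate 1 at 24 h 177 minutes apart, and on the other 3 slides together. The part of intensity or scan in the differences was not tested.

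The control arrays of both times are compared as a description, since the same arrays entered the differences that chose the members. All 8 members had a lower mean at Ctrl 24 h than at Ctrl 7 h. For 4 of them, Tfpi2, Plaur, Reg3b and Ctgf, the unadjusted p in limma was under 0.05, where 9.75% of named genes were lower at that threshold, and nothing is read from this count. With the background removal used here, Ctrl 24 h was at least 11.3-fold lower for Tfpi2 and 2.34-fold lower for Reg3b. With normexp the fitted differences were only -1.44 for Tfpi2 and -0.36 for Reg3b. In the fit reported, that of Reg3b was -1.40 without replicate 3 of Ctrl 7 h. The differences were -1.82 for Plaur (-2.72 on its second probe) and -1.71 for Ctgf, and without replicate 3 of Ctrl 7 h that of Ctgf was -0.76.

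Hmga2 (-1.44), S100a6 (-0.64), Gdf15 (-0.28) and Lif (-0.19) had the other differences between the control groups. Over the 8 the median was -1.58, beside -0.05 over all named genes. No array of 7 h shares a slide with one of 24 h, so time and slide cannot be told apart.

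Along the 12 arrays, the levels of the 8 genes correlated with each other at a Pearson r of 0.39 to 0.92 (28 pairs, median 0.75), a description of arrays that share groups and slides. The pair with the highest r was Tfpi2 with Plaur. Among 12116 other genes, those most like each member were Gpx2, Ier3 and Il1rl1 for Reg3b (r = 0.94, 0.93 and 0.93) and Sertad2, Lrrc8e and Slc25a37 for Tfpi2 (0.98, 0.97 and 0.97). For Ctgf they were Anxa2, Kiaa0040 and Plp2 (0.97, 0.97 and 0.95), and for S100a6 Ptgr1, Myl12a and Arpc1b (0.97, 0.96 and 0.96).

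For Plaur the closest were Batf3, Hbegf and Elovl1 (0.99, 0.97 and 0.97), and for Hmga2 Akr1b8, Cdk6 and Oas2 (0.93, 0.93 and 0.92). For Gdf15 they were Fst, Ppp1r15a and Ubxn7 (0.95, 0.91 and 0.91), and for Lif they included Tdrd3 and Shbg (0.96 and 0.95). Anxa2, closest to Ctgf, is the plasminogen-binding annexin described with Plaur.

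**Figure D4:**
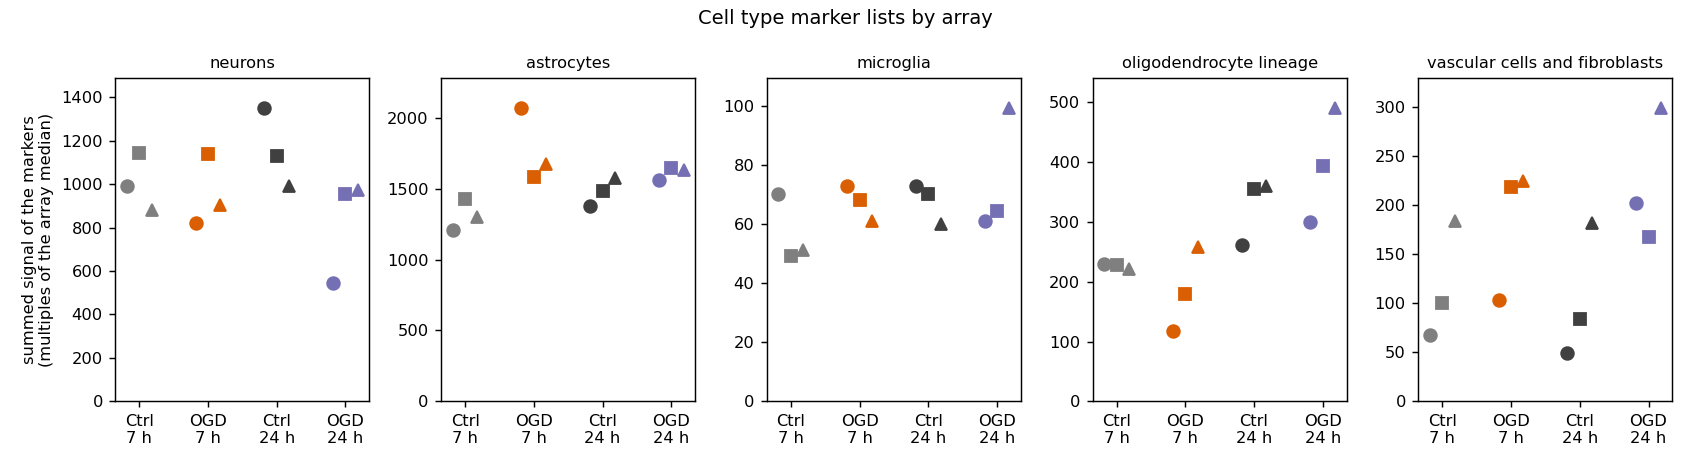
Summed normalized signal of 5 lists of cell type markers (vertical axis, multiples of the array median, from 0) on the 12 arrays; circles, squares and triangles are replicates 1, 2 and 3 of each group. The neuron sum of replicate 1 of OGD 24 h, 543, is the lowest of the 12, and the vascular and fibroblast sums of Ctrl replicate 3 are the highest control sums at both times.

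The marker lists of cell types moved along with some members in part of the groups only. All 15 neuron markers with a probe were well above background on all 12 arrays, as the label of neuron cultures asks, and so were 12 of 13 astrocyte, 9 of 14 microglia, 11 of 13 oligodendrocyte and 11 of 15 vascular and fibroblast markers. Ptprc of microglia and Tek of vessels were well above background on none. The summed signal of neuron markers was 990 to 1351 array medians at Ctrl 24 h, and 543, 956 and 971 in replicates 1, 2 and 3 of OGD 24 h. There 5 of 15 (Syn1, Eno2, Slc17a7, Gad1 and Gad2) were called lower, against 2.38% of all named genes. Over all named genes, those called lower at 24 h went from 360 to 90 without replicate 1 of OGD 24 h. The marker calls were not counted without that array. At 7 h the neuron sum was 878 to 1141 in the controls and 822 to 1140 after OGD, with Eno2 and Slc17a7 called lower (2.07% of all named genes). Replicate 1 of OGD 24 h, the highest array for all 8 members at that time, had the lowest neuron sum.

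The sums of the vascular and fibroblast list were 67.2, 100 and 184 in replicates 1, 2 and 3 of Ctrl 7 h and 49.5, 83.8 and 182 at Ctrl 24 h, in which replicate 3 was the highest, as it was for Ctgf and S100a6. After OGD they were 104, 218 and 224 in replicates 1, 2 and 3 at 7 h and 202, 167 and 299 at 24 h. Replicate 3 was the highest there too, whereas S100a6 was highest in replicate 1 of OGD at both times and Ctgf at 24 h. Of the 15 vascular and fibroblast markers with a probe, Pdgfrb and Fn1 were called higher at 24 h, against 2.74% of all named genes. Cldn5 and Rgs5 were called lower at 7 h, against 2.07%. The astrocyte sum was 1211 to 1425 at Ctrl 7 h and 1580 to 2069 at OGD 7 h, though none of its 13 genes was called, and at 24 h it was 1376 to 1573 and 1562 to 1643. Microglia sums were 49.3 to 72.9 in the controls of both times and 60.9 to 99.3 after OGD. Cx3cr1, 1 of 14 microglia markers, was called higher at 7 h, against 1.56% of all named genes. Oligodendrocyte sums were 221 to 230 and 117 to 258 at Ctrl and OGD 7 h and 261 to 359 and 301 to 491 at Ctrl and OGD 24 h. Cspg4, 1 of 13 oligodendrocyte markers, was called lower at 7 h, against 2.07% of all named genes. The part of other cell types in the differences of the 8 genes was not tested.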

How the data were processed

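Per the study's methods, Cy3-labelled RNA of each sample was hybridized to its own array, and the scans were quantified in Agilent Feature Extraction 10.5.1.1. The deposited intensity of each spot is the background-subtracted processed signal of that software, not normalized between arrays. The deposited log2 values of the series are the same signals after the authors' median centring. Probes were named through their RefSeq accession (17996 of 30367 probes, assembly GRCr8 for names), and a gene is given on the probe with the highest mean signal.

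Here spots that the software had marked as outliers (non-uniform or population) were dropped. The log2 signals were averaged over the spots of each probe, and the median over the probes of an array was subtracted. Between 78.3% and 87.1% of spots were well above background, and the number of arrays limits the precision. The 4 groups were fitted in 1 model with limma 3.58.1 in R 4.3.3 (empirical Bayes, two-sided p, Benjamini-Hochberg over all probes). A call is an unadjusted p under 0.05 with a fold of at least 2, the thresholds of the methods. The SE is that of the fit. The procedure was tested on simulated data.

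A bound ("at least") was used where no array of a group was well above background: the mean of the bright group was set against the higher, on each array, of the probe's own level and the lowest level well above background. Such a bound is given only for the background removal used here, and it is not a strict lower limit. A probe can read above that lowest level without being well above background. On replicate 2 of Ctrl 7 h the lowest level well above background was -3.74, and Reg3b, not well above background there, read -3.47. With normexp the fitted differences of Reg3b, Tfpi2, Hmga2 and Il6 lay under their bounds. The members and the lists were chosen with earlier results of these data known. The genes named are the members, a set of 28 pathway genes named for their role (of which 3 had no named probe), and from each list the 2 most changed in each direction among those called at each time. Further called genes (F2rl1, Anxa2, S100a10, Ajuba and S100a4 among them) are named to complete a list. A pair of genes that these rules also name is not reported here.

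Other settings tried were quantile normalization, spike-in scaling, the 75th percentile as centre, normexp background correction (offset 50, on the median spot signal), leaving out dim probes, the authors' values, keeping flagged spots, the mean over the probes of a gene, array weights, a fixed or a random block for the slide, 2 groups alone, the methods' t-test, and each array left out. Nothing in the labels says which samples share a culture preparation.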

Additional observations from a re-analysis of the deposited data

How the results depend on the processing

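The 8 members' differences between OGD and control were recomputed under 22 alternatives each, 352 values in all, of which 348 were positive. The exceptions were Gdf15 at 24 h (-0.11 with spike-in scaling, and -0.047 to 1.49 with each array left out, the lowest without replicate 1 of OGD 24 h) and Lif with spike-in scaling (-0.42 at 7 h, -0.75 at 24 h). With spike-in scaling 3 members were at least 2-fold higher at 7 h and 5 at 24 h, none of the listed genes was called higher at 7 h and 1 at 24 h, and all 8 members had a p under 0.05 between the control groups, where the median of all probes itself shifted by -4.60. With normexp, which adds an offset to dim signals, at 7 h 6 listed genes were called higher and 3 lower, at 24 h 7 were called higher, and 2 members had a p under 0.05 between the control groups. With it 5 members at 7 h and 4 at 24 h were at least 2-fold higher. The methods' t-test called 8 higher at 7 h and 1 lower at 24 h, and 2 members between the control groups. The mean over the probes of a gene and array weights each called 1 lower at 7 h. With array weights Thbd at 24 h turned to -0.39 and S100a9 at 7 h to 1.27, the latter not called in the fit reported. The cause of these changes was not tested. Array by array left out, members at least 2-fold higher were 5 to 7 at 7 h and 5 to 7 at 24 h, listed genes called higher 8 to 15 and 11 to 17, called lower 0 to 1 and 1 to 5, and members with a p under 0.05 between the control groups 2 to 5. These counts between the controls support nothing, since the control arrays entered the choice of the members. The fewest calls at 7 h came without replicate 2 of Ctrl 7 h. With the slide as a replicate block, 14 listed genes were called higher at each time, none lower at 7 h and 2 at 24 h, and 7 and 6 members were at least 2-fold higher. Deviations of the arrays that share a slide correlated at -0.05, 0.11 and -0.01 at 7 h and 0.08, 0.17 and -0.01 at 24 h. A correlation over all probes cannot decide whether samples of 1 number share a culture, and the fit reported did not pair them.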
